A study of Mus musculus with 2 samples.

Results

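Interferon-stimulated effector genes are the 33 listed genes through which cells act on viruses and other intracellular microbes after interferon signalling: Ifit1, Ifit2, Ifit3, Isg15, Isg20, Oas1a, Oas2, Oas3, Oasl1, Oasl2, Rsad2, Ifih1, Usp18, Cmpk2, Gbp2, Gbp3, Gbp5, Bst2, Ifi35, Ifi44, Ifi47, Irgm1, Igtp, Trim25, Trim21, Xaf1, Parp9, Parp14, Dtx3l, Herc6, Samhd1, Eif2ak2 and Adar. They were chosen by name, with earlier results of these data known. All 33 were found among 21887 protein-coding genes of the mm10 assembly. KAT8 is a histone acetyltransferase, and its positions were mapped by CUT&Tag, in which an antibody brings a transposase to the protein and the DNA cut there is sequenced. The cells were macrophages grown from wild-type mouse bone marrow in medium with 20 ng/ml recombinant M-CSF. They received 100 ng/ml R848, an agonist of the endosomal RNA receptor TLR7, for 2 h (1 library) or were left untreated (1 library). The sources used here do not give the mice's strain, age or number. With 1 library a group there is no replicate to set a difference against, and no p-value is given.

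When TLR7 or another receptor of microbial nucleic acid is engaged, macrophages produce type I interferon, which signals back through its receptor and the kinases JAK1 and TYK2. Transcription factors activated in this way then bind the interferon-stimulated response element in the promoters of effector genes. Many effector genes lie in clusters that arose by tandem duplication, among them those of the Ifit, Oas and Gbp families.

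In both libraries a smaller share of effector genes than of all protein-coding genes had KAT8 peaks. Those at gene ends were weaker by median than gene-end peaks at large. In the R848 list a peak lay within 1000 bp of a gene end at 4 of the 33 members (12.1%), where 24.4% of all protein-coding genes had one. In the untreated list 3 of 33 (9.09%) had one, where 28.8% of all protein-coding genes had one. Oasl1 was the member with such a peak in both lists (3.03% of members, 17.3% of all genes). Rsad2, Parp14 and Dtx3l had one in the R848 list only (9.09% of members, 7.11% of all genes), and Isg20 and Ifi35 in the untreated list only (6.06% of members, 11.5% of all genes). The members' counts were thus below the share of all genes in each list. The counts in 1 list only were small and near the all-gene share. The 95% exact binomial intervals of the members' shares were 3.4% to 28.2% in the R848 list and 1.92% to 24.3% in the untreated list. The R848 interval includes the all-gene share of 24.4%.

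Inside the genes and in their surroundings the members' counts in each list were also below the share of all genes. The share in the R848 list only was above that of all genes there, on small counts. A peak lay inside 7 members (21.2%) in the R848 list and inside 4 (12.1%) in the untreated list, where 41.2% and 45.9% of all protein-coding genes held one. Oas2 and Herc6 held one in both lists (6.06% of members, 32.2% of all genes), Oas1a, Oas3, Rsad2, Parp9 and Parp14 in the R848 list only (15.2% of members, 8.95% of all genes), and Ifit2 and Ifi35 in the untreated list only (6.06% of members, 13.6% of all genes). Counted over the gene and 20 kb on either side, 20 members (60.6%) had a peak in the R848 list and 18 (54.5%) in the untreated list. Of all genes 69.7% and 74.4% had one. In this window 15 members had one in both lists (45.5%, 60.9% of all genes). In the R848 list only there were 5 (15.2%, 8.81% of all genes), and in the untreated list only 3 (9.09%, 13.4% of all genes). Members were shorter than protein-coding genes at large, with a median length of 15320 bp against 17169 bp and a mean of 20540 bp against 48003 bp. Per length of gene, the members held 11.8 peaks per Mb in the R848 list and 7.38 in the untreated list. All protein-coding genes held 18 and 20.7. With 20 kb on either side the densities were closer, at 14.2 and 14.8 for members and 17.7 and 20.3 for all protein-coding genes. From a member's nearer gene end to the closest peak the median distance was 17437 bp in the R848 list and 18042 bp in the untreated list, and over all protein-coding genes it was 9218 bp and 6828 bp.

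**Figure D1:**
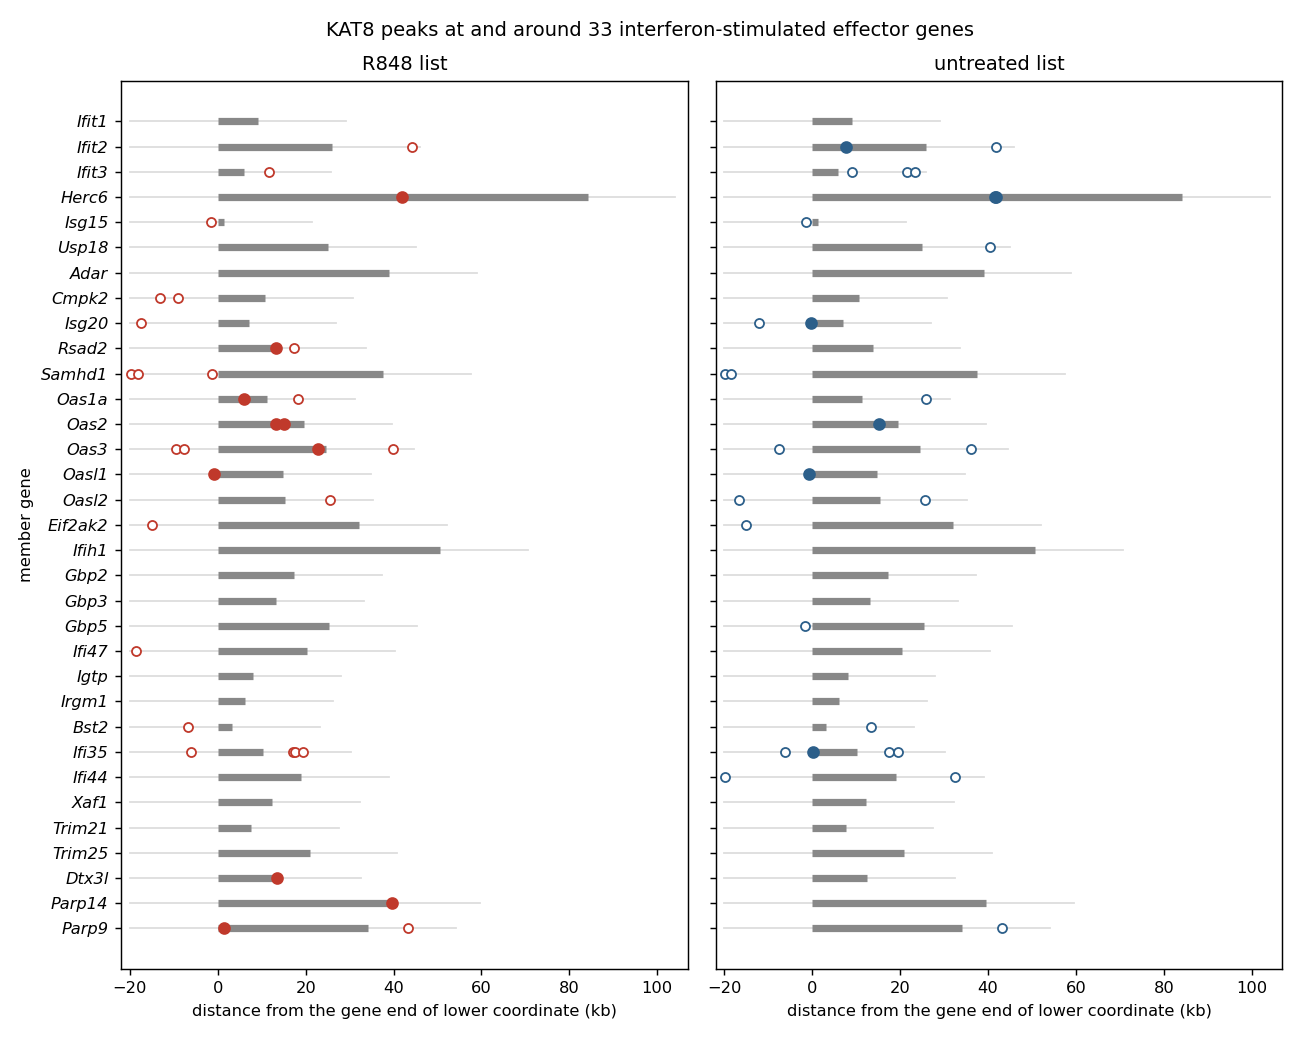
KAT8 peaks around each of the 33 effector genes in the R848 list (left) and the untreated list (right). The horizontal axis is the distance in kb from the gene end of lower coordinate, thick grey bars are genes, thin lines the 20 kb on either side, filled circles peaks inside the gene or within 1000 bp of an end, and open circles other peaks; 10 genes have no circle in either panel.

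The deposited peak lists carry, for each peak, the authors' fold over local background and a q-value as −log10. The number of sequenced fragments overlapping the peak's summit, here called its pileup, was solved from the deposited fold and p-value. All peaks of the lists had a median pileup of 10 in the R848 list and 12 in the untreated list, and the lowest called were 7 and 8. The genome-wide background was 2.62 fragments in the R848 library and 3.37 in the untreated library, so the R848 library was the shallower. Folds and pileups are therefore given to describe each list and measure no change between them. Peaks at a gene do not measure expression, so the cell type could be checked only loosely. Of 11 macrophage markers 5 (45.5%) had a gene-end peak in the R848 list and 4 (36.4%) in the untreated list. Of 10 lymphoid markers 2 (20%) and 0 had one, and of 5 granulocyte and 4 stromal markers none in either list. All protein-coding genes stood at 24.4% and 28.8%. Inside the gene, 8 and 7 macrophage, 2 and 0 lymphoid, 0 and 0 granulocyte and 2 and 1 stromal markers held a peak. Within 20 kb these were 10 and 11, 8 and 6, 3 and 1, and 2 and 2.

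Several promoters are printed here because they come from genes with and without a KAT8 peak at a gene end. Rsad2 and Oasl1 had a peak close to their transcription start, in Ifi35 a peak covered the start itself, and neither list held a gene-end peak at Isg15, Ifit1 or Gbp2. Each sequence is the 250 bases before the start, read 5′ to 3′ along the gene's strand, from RefSeq (GRCm38.p6). Capitals mark the core of the interferon-stimulated response element, searched on both strands as GAAA, any 2 bases and GAAA again, with overlapping matches joined.
Rsad2, chr12:26456453-26456702, minus strand: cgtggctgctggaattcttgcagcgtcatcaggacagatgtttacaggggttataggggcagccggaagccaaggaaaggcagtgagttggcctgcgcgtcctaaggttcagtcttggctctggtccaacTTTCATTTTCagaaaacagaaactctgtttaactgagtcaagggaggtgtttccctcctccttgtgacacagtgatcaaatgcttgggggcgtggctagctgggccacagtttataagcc
Oasl1, chr5:114922990-114923239, plus strand: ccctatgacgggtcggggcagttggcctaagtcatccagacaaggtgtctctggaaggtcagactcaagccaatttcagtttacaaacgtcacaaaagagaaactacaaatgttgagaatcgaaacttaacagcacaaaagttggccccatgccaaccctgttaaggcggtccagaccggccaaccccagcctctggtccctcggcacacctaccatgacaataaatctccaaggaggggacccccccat
Ifi35, chr11:101448162-101448411, plus strand: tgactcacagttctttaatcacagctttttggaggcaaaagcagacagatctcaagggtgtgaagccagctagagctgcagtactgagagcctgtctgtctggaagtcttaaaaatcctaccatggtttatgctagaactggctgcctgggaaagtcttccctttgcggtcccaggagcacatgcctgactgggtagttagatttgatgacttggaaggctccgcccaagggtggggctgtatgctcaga
Isg15, chr4:156200819-156201068, minus strand: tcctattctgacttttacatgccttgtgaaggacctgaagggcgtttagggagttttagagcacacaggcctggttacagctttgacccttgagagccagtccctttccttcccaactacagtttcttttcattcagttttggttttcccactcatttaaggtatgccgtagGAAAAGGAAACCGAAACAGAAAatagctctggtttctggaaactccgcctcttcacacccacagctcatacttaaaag
Ifit1, chr19:34640639-34640888, plus strand: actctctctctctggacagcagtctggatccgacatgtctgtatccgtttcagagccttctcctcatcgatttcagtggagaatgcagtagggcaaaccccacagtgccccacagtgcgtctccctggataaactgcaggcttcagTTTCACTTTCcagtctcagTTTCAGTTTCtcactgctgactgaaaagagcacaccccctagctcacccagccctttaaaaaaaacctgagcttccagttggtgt
Gbp2, chr3:142620413-142620662, plus strand: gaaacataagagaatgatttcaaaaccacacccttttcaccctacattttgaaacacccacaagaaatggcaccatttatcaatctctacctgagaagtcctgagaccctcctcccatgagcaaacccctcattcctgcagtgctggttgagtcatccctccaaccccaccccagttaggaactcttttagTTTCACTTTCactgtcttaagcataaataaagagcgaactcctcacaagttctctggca

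The members that act on RNA or nucleotides come from separate families, and each of their gene-end peaks was in 1 list only. Rsad2 encodes viperin, which makes a nucleotide analogue that ends viral RNA chains. In the R848 list a peak at chr12:26455839-26456048 lay inside Rsad2, its summit 568 bp downstream of the start of the promoter printed above. It had a fold of 2.76, a pileup of 9 and 0.581 as its −log10 q. A second R848 peak, with a fold of 3.04 and a pileup of 10, had its summit 3504 bp upstream of that start, between Rsad2 and its neighbour Cmpk2, a mitochondrial nucleotide kinase. The untreated list had no peak at Rsad2, within 20 kb of it or within 20 kb of Cmpk2, and its closest peak was 27447 bp from an end of Rsad2. The first R848 peak was weak, with a lower −log10 p in 22.5% of R848 peaks. The second stood at the list's median −log10 p of 4.03, with a lower value in 43.8%.

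Isg20, an exonuclease of single-stranded RNA, had no gene-end peak in the R848 list, where the closest peak was 17437 bp away, at the end of Aen. The untreated list had one at chr7:78912900-78913184, with its summit 518 bp upstream of the first annotated start, a fold of 2.29, a −log10 q of 0.163 and a pileup of 9. Samhd1, which hydrolyses the nucleotides needed for viral DNA synthesis, had no peak at its ends or inside it in either list. In the R848 list a peak of fold 3.04 lay 1250 bp beyond its 3′ end, within Tldc2, while the closest untreated peak was 18042 bp away. Adar, which edits adenosines in double-stranded RNA, had its closest peak 20052 bp away in the R848 list and 20313 bp away in the untreated list.

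Most Oas proteins make an oligoadenylate that activates the antiviral ribonuclease L. In this family Oasl1 carried the weakest of the members' gene-end peaks in the R848 list and the strongest in the untreated list. Oasl1 lacks the synthetase activity and is known in mice as a brake on translation of Irf7. Its R848 peak (chr5:114922199-114922519) had a fold of 2.49 and a pileup of 8, with a −log10 q of 0.233. Its untreated peak (chr5:114922385-114922632) had a fold of 3.89 and a pileup of 16, with a −log10 q of 3.47. The peaks overlapped by 135 bp, with summits 849 bp upstream of the Oasl1 start in the R848 list and 730 bp upstream in the untreated list. Oasl2, its neighbour, had no peak of its own: the closest was that of Oasl1, 9954 bp away in the R848 list and 10140 bp away in the untreated list.

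The Oas1a, Oas2 and Oas3 genes lie together on chromosome 5, and their peaks were inside the genes rather than at the ends. In the R848 list Oas2 held 2 peaks (folds 3.31 and 3.59, pileups 11 and 12), Oas1a held 1 (fold 3.04, pileup 10) and Oas3 held 1 (fold 2.76, pileup 9), which lay 1696 bp from the end of Oas3. In the untreated list Oas2 held 1 peak (fold 2.75, pileup 11), and Oas1a and Oas3 held none. The untreated peak in Oas2 (chr5:120745327-120745526) overlapped the stronger R848 peak (chr5:120745333-120745532) by 194 bp. Over the 217 kb of this locus with its flanks, each list had 7 peaks, and that in Oas2 was the 1 they shared. Within 20 kb of all protein-coding genes 36.8% of R848 peaks and 32.1% of untreated peaks were shared. The density was 3.22 peaks per 100 kb in both lists, against 1.68 over the genome in the R848 list and 1.95 in the untreated list. The Oas1 genes are near-identical tandem copies, and how reads that map to several places were treated is not given, so which copy a peak belongs to is uncertain. The Ifit and Gbp clusters also arose by tandem duplication, and the effect of such reads on their peak counts was not tested.

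The Ifit proteins bind viral RNA that lacks the methyl marks of host caps, and their cluster on chromosome 19 had a single peak in the R848 list. Across the 139 kb from Ifit2 to Ifit1 with 20 kb flanks, the R848 list had 1 peak and the untreated list 5, none of them shared. Most peaks near genes were not shared either: within 20 kb of all protein-coding genes 36.8% of R848 and 32.1% of untreated peaks were. The density was 0.72 peaks per 100 kb in the R848 list, against 1.68 over the genome. In the untreated list it was 3.59, against 1.95. The R848 peak (fold 3.32, pileup 11) lay within Ifit1bl1, a related gene, 5699 bp beyond Ifit3. The untreated list had the one peak inside a member, in Ifit2 (fold 3.2, pileup 13, −log10 q 1.75), 7469 bp from the gene's end. Ifit1 itself had no peak within 20 kb in either list, although its promoter printed above holds the element core at 2 places, 104 bp and 85 bp upstream of the start.

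The interferon-induced GTPases attack the vacuoles of intracellular bacteria and parasites. None of Gbp2, Gbp3, Gbp5, Irgm1, Igtp and Ifi47 had a peak at an end or inside the gene in either list. Over the 181 kb of the Gbp locus with its flanks the R848 list had 0 peaks and the untreated list 1, a peak of fold 2.29 and pileup 9 lying 1444 bp from the end of Gbp5. Distances from a gene end to the closest peak reached 178548 bp at Gbp5 and 127679 bp at Gbp3 in the R848 list. At Igtp they were 81857 bp in the R848 list and 94893 bp in the untreated list, and at Irgm1 47598 bp and 47823 bp. Ifi47 had a single R848 peak within 20 kb, at the end of Tgtp2, another GTPase gene, and no untreated peak. Irgm1 and Ifi47 spanned 272 kb with their flanks, in which the R848 list had 2 peaks and the untreated list 1.

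Parp14 and the gene pair Dtx3l and Parp9 had their peaks in the R848 list. PARP9 and the ubiquitin ligase DTX3L act as a complex, and PARP14 attaches single ADP-ribose units to proteins. The R848 peak across the upper-coordinate end of Parp14 (chr16:35871306-35871750) had a fold of 3.59, a pileup of 12 and a −log10 q of 2.07, the highest of the 4 R848 gene-end peaks at members. In the untreated list the closest peak was 109940 bp from an end of Parp14. A second R848 peak, at chr16:35939836-35940100, lay 809 bp before the start of Dtx3l and inside Parp9, with a fold of 2.76 and a pileup of 9, and the closest untreated peak was 41539 bp from its summit. The other peak of this locus stood in both lists, 8839 bp beyond Parp9 in the R848 list and 8837 bp in the untreated list, with folds of 37.2 and 37.1 and pileups of 493 and 597. Folds of 20 or more were rare (117 R848 peaks and 113 untreated peaks), and this one counts for Parp9 only in the window of 20 kb. It overlapped another annotated gene, Gm15564. Its local background was 12.28 fragments in the R848 list and 15.12 in the untreated list, above the genome-wide 2.62 and 3.37.

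Among genes of the ISG15 system, Herc6 alone had a peak at an end or inside the gene. Herc6, the ligase that attaches the ubiquitin-like protein ISG15 to its targets in mice, is the longest member at 84145 bp. One R848 peak (fold 3.32, pileup 11) and a pair of untreated peaks (fold 2.98 and pileup 12 each) lay close together inside it, at least 41381 bp from its 5′ end, and the R848 peak overlapped one of the pair by 223 bp. Isg15 itself had a peak just outside the window, 1277 bp beyond its 3′ end in the R848 list (fold 4, pileup 15) and 1347 bp beyond it in the untreated list (fold 3.89, pileup 16). These peaks overlapped by 249 bp and lay 196 bp and 296 bp from the end of the neighbouring gene Agrn. The Isg15 promoter printed above holds 3 overlapping matches of the element core, and no peak of either list reached it. Usp18, which removes ISG15 and restrains the interferon receptor, had its closest peak 67718 bp away in the R848 list and 15304 bp away in the untreated list.

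The RNA sensors and the remaining effectors had 1 gene-end peak in all. It was at Ifi35, whose product binds the interferon-induced protein NMI. The R848 list had no peak nearer to Ifi35 than 5884 bp, at Rpl27. The untreated list had one over the transcription start (chr11:101448391-101448636), with a fold of 2.52, a pileup of 10 and 0.462 as its −log10 q. Ifih1, a cytosolic sensor of double-stranded RNA, stood 122460 bp from the closest R848 peak and 173855 bp from the closest untreated peak. Eif2ak2, the kinase that halts translation on binding double-stranded RNA, had none nearer than 14793 bp in the R848 list and 14907 bp in the untreated list, where a peak shared by both lists lay at the ends of Heatr5b and Gpatch11. Bst2, which tethers budding virus to the cell surface, had its closest peak at 6725 bp in the R848 list and 9963 bp in the untreated list. Ifi44 had none nearer than 29217 bp in the R848 list and 13500 bp in the untreated list. The ubiquitin ligase genes Trim25 and Trim21 and the apoptosis factor gene Xaf1 had no peak within 20 kb in either list, with distances of 25455 bp to 52994 bp.

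**Figure D2:**
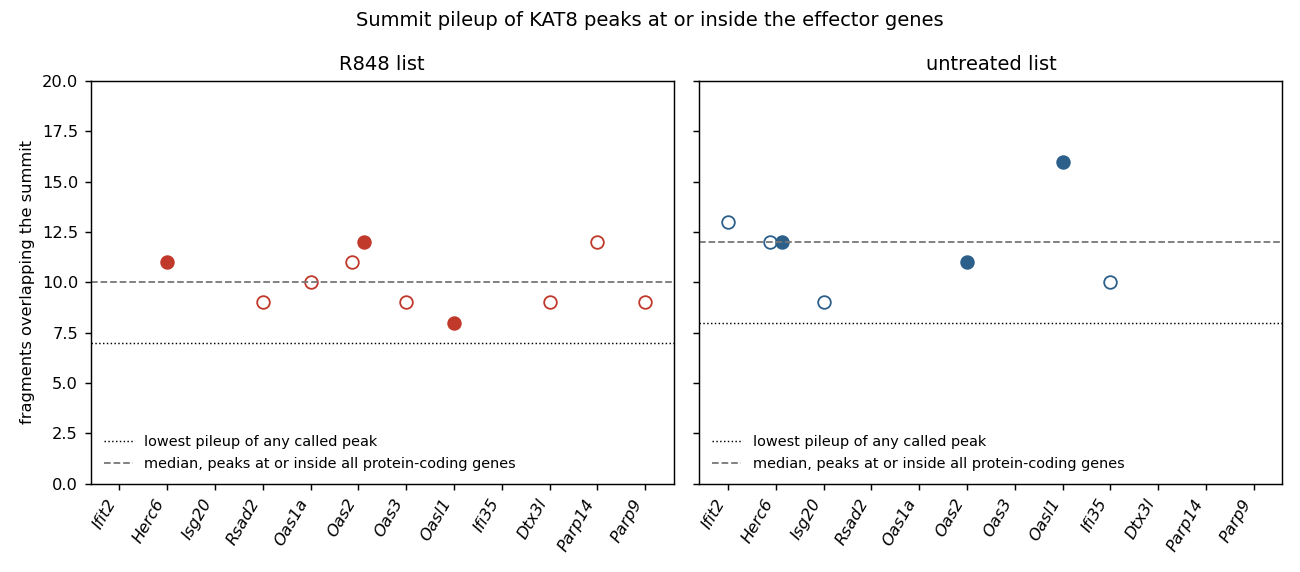
Summit pileup, in overlapping fragments, of each peak inside an effector gene or within 1000 bp of its end, in the R848 list (left) and the untreated list (right). Filled circles overlap a peak of the other list, dotted lines mark the lowest pileup of any called peak (7 and 8) and dashed lines the median of peaks in the same windows of all protein-coding genes (10 and 12); the members' peaks lie at 8 to 12 and at 9 to 16.

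The members' gene-end peaks were weaker by median than gene-end peaks at large, while their peaks in wider windows were not. The 4 R848 gene-end peaks had a median fold of 2.76 and the 3 untreated ones 2.52, where gene-end peaks of all protein-coding genes had medians of 3.32 and 3.2. None of the members' gene-end peaks reached a −log10 q of 5, while 802 of 4976 R848 and 1088 of 5902 untreated gene-end peaks over all genes did. Counted inside the gene or within 1000 bp of it, the 9 R848 peaks at members had a median fold of 3.04 and the 7 untreated ones 2.98, where all protein-coding genes had 3.04 and 2.77. In that window the median pileup was 10 in the R848 list and 12 in the untreated list for members and for all genes alike. A −log10 q of at least 1.3 was reached there by 4 of the 9 and 2 of the 7, against 8356 of 19345 and 8493 of 22142 peaks over all genes. Over the gene and 20 kb on either side the median folds were 3.18 and 2.89 for members and 3.04 and 2.75 for all genes. Among the gene-end peaks at members, 1 R848 peak (at Parp14) and 1 untreated peak (at Oasl1) reached a q of 0.05. At that threshold Oasl1 no longer had peaks in both lists, and 15.1% of all protein-coding genes in the R848 list and 16.7% in the untreated list had a gene-end peak. Counting only peaks within 1000 bp of an annotated transcription start, which was at hand for 29 members, 3 had one in the R848 list (Oasl1, Rsad2 and Dtx3l) and 3 in the untreated list (Oasl1, Isg20 and Ifi35). That is 10.3% in each list, where 24.1% of all protein-coding genes with such a start had one in the R848 list and 28.7% in the untreated list.

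Just inside the 1000 bp window lay the R848 peaks of Dtx3l (809 bp) and Oasl1 (624 bp), and just outside it the R848 peaks of Samhd1 (1250 bp), Isg15 (1277 bp) and Parp9 (1366 bp) and the untreated peaks of Isg15 (1347 bp) and Gbp5 (1444 bp).

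Of the nearby peaks outside the members themselves, most lay at the ends of other genes. Within 20 kb of the 33 genes lay 26 R848 peaks and 27 untreated peaks, and 11 of each overlapped a peak of the other list (42.3% and 40.7%). Over all protein-coding genes the same windows gave 36.8% and 32.1%. Of the R848 peaks 9 were at or inside members, 3 of them shared, and 12 of the other 17 lay within 1000 bp of the end of another protein-coding gene, 7 of them shared. Of the untreated peaks 7 were at or inside members, 3 of them shared, and 12 of the other 20 lay at the end of another gene, 7 of them shared. Counted as pairs of a gene and a peak within 20 kb but neither inside it nor within 1000 bp of its ends, 14 of the members' 23 pairs in each list (60.9%) had the peak at the end of another gene. Over all protein-coding genes this held for 28.9% of 17300 R848 pairs and 29.6% of 19969 untreated pairs. The members' pairs were not spread evenly. In the R848 list all 4 peaks near Ifi35 and all 3 near Samhd1 were among them. In the untreated list the 2 near Samhd1 were, and those near Ifi35 other than that over its start. Some pairs took the peak of another member, as Oasl2 did that of Oasl1. How close the members stand to other genes was not compared. Among these neighbours were Rpl27 and Rnd2 beside Ifi35, Heatr5b beside Eif2ak2, Soga1 beside Samhd1, and Agrn beside Isg15.

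Genes that carry the interferon signal had gene-end peaks at a larger share than the effectors. Of 20 pathway genes outside the effector list, 9 (45%) had a gene-end peak in the R848 list and 12 (60%) in the untreated list. Both lists held one at 8 (40%). All protein-coding genes stood at 24.4% and 28.8%, and at 17.3% for both lists. In the R848 list only there was 1 pathway gene (5%, 7.11% of all genes), and in the untreated list only 4 (20%, 11.5% of all genes). Jak2, a kinase of the interferon-gamma receptor (fold 7.43 in the R848 list and 6.18 in the untreated list), Ifngr1 (5.8 and 6.87) and Ifnar1 (4.42 and 6.18), which encode interferon receptor chains, and Irf1 (4.38 and 3.66), an interferon-induced transcription factor, had overlapping peaks in both. Stat2 had a weak peak (fold 2.49, −log10 q 0.233) in the R848 list only. Mavs (3.66), the adaptor of cytosolic RNA sensors, Tbk1 (3.43), the kinase that activates IRF3, and Irf9 (3.2) had theirs in the untreated list only. The same class held Myd88 (4.35), but an R848 peak beyond the window's edge overlapped it. The median distance from a pathway gene's end to the closest peak was 1294.5 bp in the R848 list and 4.5 bp in the untreated list.

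Other interferon-stimulated genes stood between the effectors and the pathway genes. Of 42 such genes, 12 (28.6%) had a gene-end peak in the R848 list and 15 (35.7%) in the untreated list. Both lists held one at 8 (19%, 17.3% of all genes). In the R848 list only there were 4 (9.52%, 7.11% of all genes), and in the untreated list only 7 (16.7%, 11.5% of all genes). Psme2, a proteasome activator subunit (fold 6 in the R848 list and 5.81 in the untreated list), Daxx, a histone chaperone (3.72 and 5.45), and the adjoining genes Tap1, a peptide transporter, and Psmb9, an immunoproteasome subunit, which had the same peaks (5.25 and 3.2), had overlapping peaks in both lists. Slfn5 (3.32), Trim30a (2.76), Slfn2 (2.75) and Nmi (3.59) had theirs in the R848 list only, that of Nmi overlapping an untreated peak beyond the window's edge. Parp12 (4.35), Ifitm2 (2.98), Ifit1bl1 (2.89) and, at 2.75 each, Oas1c, Trafd1 and Mov10 were among 7 in the untreated list only. The difference between these lists of genes was not tested, and the lists were chosen with earlier results of these data known.

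**Figure D3:**
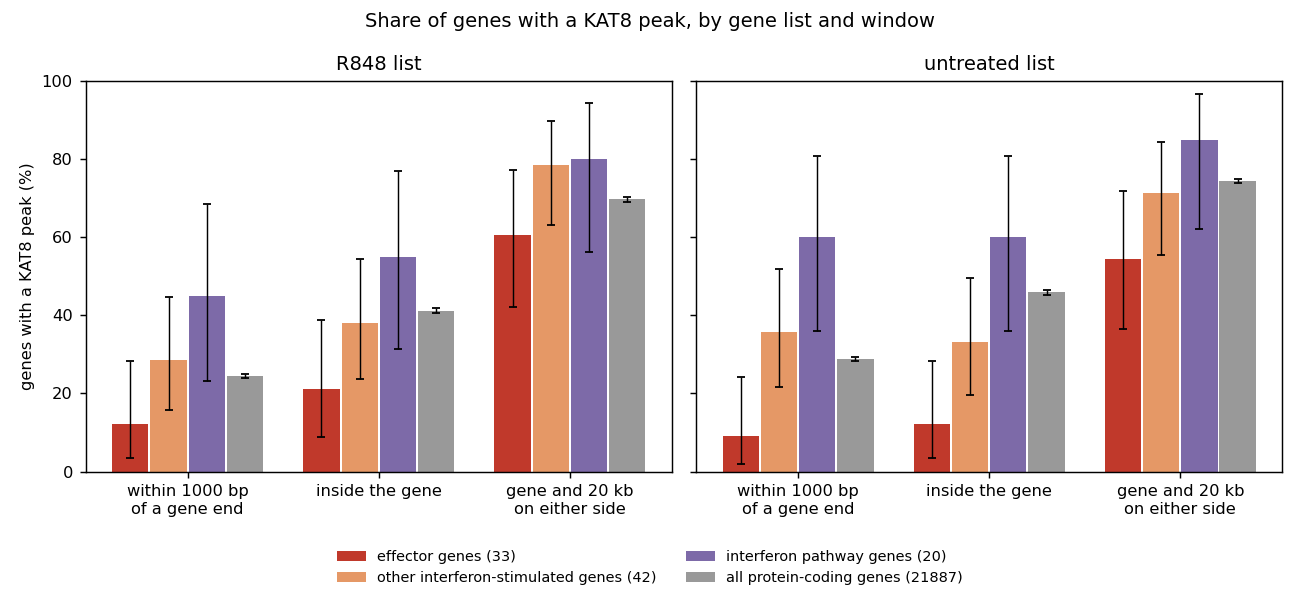
Percentage of genes with a KAT8 peak in the R848 list (left) and the untreated list (right), for 3 windows and 4 gene lists. Bars are the share of genes, with 95% exact binomial intervals that cover counting error only; at gene ends the effector genes stand at 12.1% and 9.09% and all protein-coding genes at 24.4% and 28.8%.

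The effectors' promoters also had features in common, and other interferon-stimulated genes had them too. Interferon-stimulated genes are switched on through the response element, as described above, so its share among them is no independent result. A start was at hand for 29 members, and in the 300 bases around it (250 before and 50 after) 15 of the 29 (51.7%) held the response element core, against 3.94% of 17492 protein-coding genes. Of the other interferon-stimulated genes 15 of 33 (45.5%) held it, and of the pathway genes 3 of 18 (16.7%). Both strands were searched. Matches of the response element core were found in Isg15, Ifit1, Ifit3, Oas1a, Oas3, Rsad2, Bst2, Gbp2, Gbp3, Gbp5, Igtp, Irgm1, Ifih1, Eif2ak2 and Trim21. A match is a run of letters and not a measured binding site. Of the 15 members with the element core, Rsad2 alone had a gene-end peak (R848 list), and of the 14 without it 2 had one in the R848 list and 3 in the untreated list.

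The same windows were poor in CpG dinucleotides. A single start was counted per gene, also where more were annotated. Counted so, members had a median of 6 CpGs, with a range of 1 (Ifit3 and Isg20) to 29 (Samhd1). All protein-coding genes had a median of 13. Adar was counted with 6 CpGs, and another of its annotated starts has 34. The other interferon-stimulated genes also had a median of 6, with gene-end peaks at the 28.6% (R848 list) and 35.7% (untreated list) given above, and the pathway genes had a median of 18.5. The G+C content of the members' windows had a median of 50.7%, against 56.3% over all genes. Gene-end peaks were more frequent with more CpGs across all protein-coding genes: with 0 to 4 CpGs 7.73% had one in the R848 list and 9.63% in the untreated list, and with 30 to 65 CpGs 47% and 53.1%. Among the 12 members with 0 to 4 CpGs the R848 list had no gene-end peak and the untreated list had peaks at 2 (Isg20 and Ifi35). Of the 9 with 5 to 9 CpGs 2 had one in the R848 list (Oasl1 and Rsad2) and 1 in the untreated list (Oasl1), where all genes of that count had 14.8% and 16.8%. Of the 8 members with 10 to 29 CpGs, 1 had a peak in the R848 list (Dtx3l) and 0 in the untreated list, where 32.4% and 39% of all genes of that count had one. The 8 leaned to the low side: 4 had 10 to 14 CpGs, 3 had 15 to 19 and 1 had 20 to 29. Of all 7393 genes 3694 had 20 to 29. In these classes all genes had peaks at 21.2%, 30% and 38.8% in the R848 list. In the untreated list they had 27.7%, 36.8% and 45.5%. The part of CpG content in the members' low counts was not tested.

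**Figure D4:**
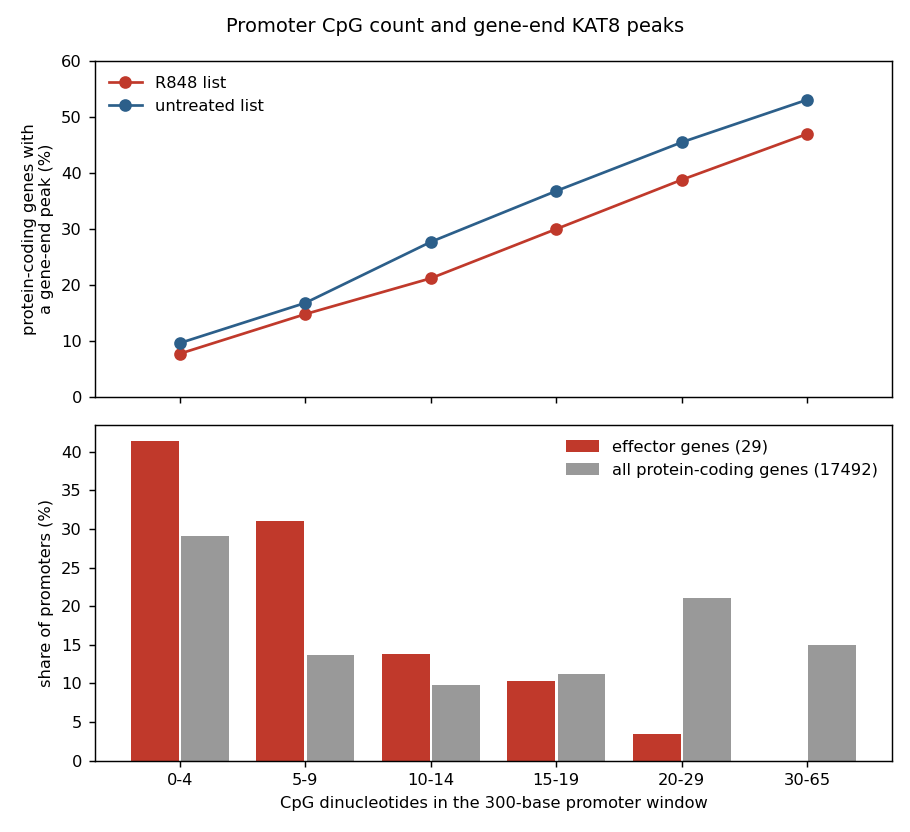
Top, percentage of protein-coding genes with a gene-end KAT8 peak by the number of CpG dinucleotides in the 300-base promoter window, for the R848 and the untreated list. Bottom, percentage of promoters in each CpG class for 29 effector genes and 17492 protein-coding genes, with a single start counted per gene. By that start 12 effector genes fall in the class with 0 to 4 CpGs and none in that with 30 to 65.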

How the data were processed

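Per the labels' protocols, KAT8 was profiled by CUT&Tag in mouse bone marrow-derived macrophages, with 1 library for R848 and 1 untreated. The tools in the submitters' processing notes are MACS2 2.2.7.1, Bowtie 0.12.8 and DiffBind, and the build is mm10. Their roles, the caller settings and any control library are not given there. Peak names of the R848 list combine both time points, which is not explained. The authors deposited 1 peak list per library (44772 R848 and 52001 untreated peaks), each with a score (10 times −log10 p), a fold over background (a ratio), −log10 p, −log10 q and the summit position. Both lists reach down to a −log10 p of 2.01, so weak peaks are included, and a peak of 1 list can be just under the threshold in the other or missed in the shallower R848 library. Read totals are unknown.

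Pileup and background were solved from the fold, as (pileup + 1) / (background + 1), and the Poisson tail. Pileups were whole within 0.05 for over 99.9% of peaks (99.9955% R848, 99.9981% untreated). A gene had a peak where at least 1 bp fell in its window, using RefSeq gene ends of GRCm38.p6, the assembly of mm10. Promoter windows and strands came from RefSeq for 29 members, without Oas2, Usp18, Parp9 and Parp14. No test was run. The members and lists were chosen with earlier results of these data known. Every member with a peak at an end or inside the gene is named, and of the other lists up to 4 genes per class by fold, with ties. Oas1b was not in the gene table. One planned item is not reported here. Interval code was tested on simulated data. Python 3.11.15, numpy 2.4.6, pandas 2.3.3 and scipy 1.17.1 were used.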

Additional observations from a re-analysis of the deposited data

How the results depend on the processing

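No paired analysis was possible because each group has 1 library, and no replicate could be left out. The gene-end counts of members rested on weak peaks. With −log10 q of at least 1.3 in both lists, each list had 1 member with a gene-end peak, which was in that list only. All protein-coding genes then stood at 15.1% (R848 list) and 16.7% (untreated list), with 4.6% and 6.15% in 1 list only. A peak lay inside 3 members in the R848 list and 1 in the untreated list, and within 20 kb of 13 and 10. All-gene shares for those windows are not given at this threshold. With −log10 q of at least 5, 0 members had a peak at an end or inside the gene in either list. Of all protein-coding genes 4.39% and 5.97% then had a gene-end peak. Within 20 kb 2 members had a peak in the R848 list and 1 in the untreated list. The 1 untreated peak left was shared (100%), and it was the peak of fold 37.1 near Parp9, over a raised local background. Against any peak of the other list, 1 member had a peak of −log10 q of at least 1.3 in the R848 list only and 0 in the untreated list only. With lists of equal length the untreated list alone had 1 member's gene-end peak, where 10.1% of all genes had one in that list only. A window of 500 bp gave 2 members in the R848 list, where 21.2% of all genes had a peak. One of 3000 bp gave 8 in the R848 list and 5 in the untreated list, where 32.9% and 38% of all genes had one. In the R848 list only it gave 6 members, where 9.89% of all genes had one. The other 48 of 72 alternative values stayed within 1.5 times the main count or, for shares, within its 95% exact interval. They covered untreated pileups scaled to the R848 background, 5′ ends only, summits in place of peaks, windows of 10 and 50 kb, and overlap of 50% or summits within 250 bp. One alternative was chosen after seeing the data: with peaks of fold 20 or more left out, 20 members had a peak within 20 kb in the R848 list and 17 in the untreated list. With 7 or 8 fragments as the lowest pileup called, a peak below that depth could not be detected.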

Other observations

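Over all protein-coding genes, promoters that hold the response element core had a lower share of gene-end KAT8 peaks than the others. Of 689 genes with the element core in a promoter window, 132 (19.2%) had a gene-end peak in the R848 list and 150 (21.8%) in the untreated list. Of 16803 genes without it, 4238 (25.2%) and 5015 (29.8%) had one. The promoters with the core had a median of 6 CpG dinucleotides and those without it 14. The difference in shares and the part of CpG content in it were not tested.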
